A study of Arabidopsis thaliana with 12 samples.

Results

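Ribosome-bound mRNA was compared with total mRNA in wild-type seedlings of Arabidopsis thaliana. The comparison took 6 of the 12 libraries of the study, namely 3 of total mRNA and 3 of mRNA recovered with immunopurified ribosomes, chosen by their labels and paired by replicate number. All 6 came from Columbia seedlings of the genotype labelled wild type, 9 days old, kept at 22 °C in chambers or a room with days of 16 h of light and nights of 8 h. They were frozen whole at zeitgeber time (ZT) 16 h, at the end of the light period. The other 6 libraries, from an eif4e mutant of the same ecotype, whose allele the labels do not name, grown and sampled in the same way, served only to show where the ratio differed. All libraries were made with a stranded kit that selects polyadenylated RNA. Nothing in the labels says that replicates were grown separately, and the p-values therefore cover only the spread among these libraries, which may be technical.

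An mRNA is translated by ribosomes that assemble near its start and move along its coding region, so an mRNA in use carries one or more ribosomes and is recovered with them, whereas an mRNA held in the nucleus, stored or repressed is not. Noncoding RNAs are in general poorly represented among ribosome-bound RNA. The labels cite published methods for the immunopurification; in those methods the ribosomes carry an epitope-tagged large-subunit protein, RPL18, that is expressed from a viral promoter active in most but not all cells. The labels do not say whether these seedlings carried that transgene, or which cells held tagged ribosomes. A gene's place in cells with few captured ribosomes cannot be told apart from a low share of its mRNA on ribosomes, and in whole seedlings fewer cells of a type and less RNA per cell cannot be told apart.

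The libraries held 18585324 to 24673644 counts in listed genes, with a median of 356 to 471 counts per tested gene and library. The first principal component, with 78.9% of the variance, separated ribosome-bound from total libraries, and the second, with 15.0%, placed same-numbered libraries of both kinds side by side. Markers of mesophyll, phloem, epidermis and root were all detected in these whole seedlings, and neither of the 2 pollen markers passed the filter. Counts and values per kilobase of gene length and library depth (FPKM) were the deposited values. The ratio below is ribosome-bound over total mRNA on the log2 scale, from edgeR's quasi-likelihood test with the replicate number as a block and TMM scaling, and p-values were adjusted over all 19329 genes tested by Benjamini-Hochberg. Because each library is scaled to its own total, a ratio is relative to the average mRNA of the seedlings and says nothing of the absolute share of mRNA on ribosomes.

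The composition of ribosome-bound mRNA differed from that of total mRNA in most genes. At an adjusted p below 0.05, 7943 genes (41.1% of those tested) were higher and 7452 genes (38.6%) were lower in ribosome-bound mRNA. A difference of at least 2-fold was reached by 2200 higher genes (11.4%) and by 1613 lower genes (8.34%). From the 5th to the 95th percentile of genes the log2 ratio ran from -1.23 to 1.32, with a median of 0.02. On scaled counts the ribosome-bound and total libraries did not overlap in 13796 genes (71.4%), so a lack of overlap was common. Counts of class members and statements on overlap below are to be read against these shares.

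The ratio fell as gene length rose. Length is that implied by each gene's deposited count and FPKM. Genes were put in 5 bins of equal size. In the shortest bin, up to 918 bases, the median log2 ratio was 0.94, and 80.8% of the genes were higher on ribosomes. It was 0.43, 0.05 and -0.24 in the next bins and -0.70 in the longest, above 2244 bases, where 89.3% of the genes were lower. The 3 replicate pairs gave 0.87 to 0.96 in the shortest and -0.72 to -0.67 in the longest bin. Over the 19329 genes, Spearman's rho between length and ratio was -0.72, as a description of genes that share the same libraries. The level in total mRNA went with it less: the median log2 ratio was 0.03, -0.06, -0.07 and 0.01 in the 4 lower bins of mean FPKM and 0.23 in the highest, whose genes were also shorter (median 1325 bases against 1516 bases over all genes).

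Each class was therefore read in a second fit as well, with the smooth trend of the ratio on gene length taken out (called the length-corrected ratio below). In it 5801 genes (30%) were higher and 6148 (31.8%) lower. Of the genes that passed the test in both fits, 8328 had the same sign and 1695 the opposite sign. Differences of at least 2-fold became rarer and uneven, with 269 genes higher (1.39%) and 1070 lower (5.54%). What stands behind the trend on length was not tested.

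**Figure D1:**
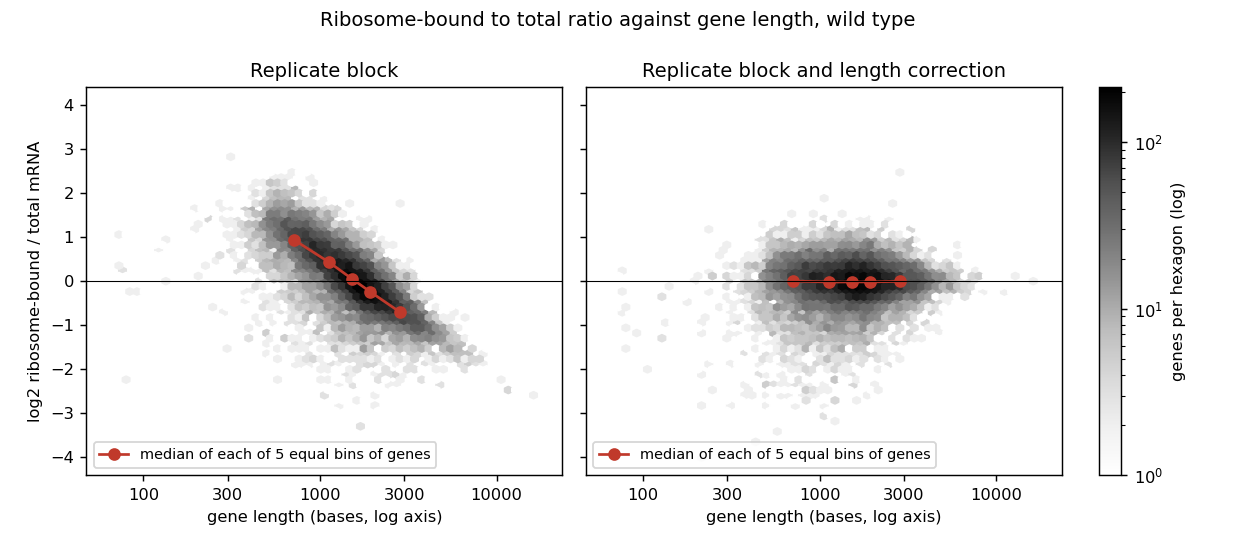
Log2 ratio of ribosome-bound to total mRNA against gene length (log axis) for the 19329 genes tested in wild type, before (left) and after (right) the length correction; shading gives the number of genes per hexagon, red points are medians of 5 equal bins of genes, and values beyond 4 in size are drawn at 4. The red medians fall from 0.94 to -0.70 on the left and stay near 0 on the right, where most of the far points lie below 0.

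Among the 10 genes with the highest ratios were the metallothionein genes MT3 and MT2B. The metallothionein gene MT3 (AT3G15353), which encodes a small cysteine-rich metal-binding protein, was at 804, 666 and 766 FPKM in total mRNA and 4047, 4111 and 3462 FPKM in ribosome-bound mRNA. The metallothionein gene MT2B (AT5G02380) was at 1636, 1605 and 1575 FPKM in total mRNA and 7991, 7444 and 6435 FPKM in ribosome-bound mRNA. In both genes every ribosome-bound library was above every total library. The log2 ratios were 2.52 (SE 0.07, adjusted p = 1.5e-20) for MT3 and 2.32 (SE 0.06, adjusted p = 7.7e-21) for MT2B, or 5.74-fold and 4.99-fold. The first is 1.502 and the second 1.20 once gene length is taken out.

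KIN2 (AT5G15970), a small hydrophilic protein gene induced by cold and abscisic acid, was at 303, 329 and 346 FPKM in total mRNA and 1186, 1442 and 1461 FPKM in ribosome-bound mRNA. PDF2.1 (AT2G02120), which encodes a plant defensin, a small secreted cysteine-rich protein, was at 33.0, 35.5 and 37.9 FPKM in total mRNA and 180.0, 194 and 148 FPKM in ribosome-bound mRNA. The groups did not overlap in either gene, and the log2 ratios were 2.20 (SE 0.05, adjusted p = 2.3e-21) and 2.43 (SE 0.08, adjusted p = 2.4e-19). RADIALIS-LIKE genes encode small proteins with a single MYB-type domain. RL3 (AT4G36570) was at 4.15, 3.15 and 6.27 FPKM in total mRNA and 26.6, 18.8 and 26.5 FPKM in ribosome-bound mRNA. Its log2 ratio of 2.54 (SE 0.14, adjusted p = 1.3e-14) was the highest among genes with a symbol and a mean of at least 5 FPKM, the rule by which the 10 highest and 10 lowest were chosen. A second gene of this family, RL4 (AT2G18328), had a log2 ratio of 2.27 (adjusted p = 9.8e-16). The others of the 10 highest were the SPIRAL1-like microtubule protein gene SP1L5 (AT4G23496) at 2.34, the thioredoxin gene TRX1 (AT3G51030) at 2.26, the peptide hormone gene CLE26 (AT1G69970) at 2.14 and EHB1 (AT1G70800) at 2.106. All 10 were 400 to 717 bases long, in the shortest bin. After the length correction their log2 ratios were 0.88 to 1.502, and each stayed above 0 with an adjusted p of at most 1.8e-05.

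The genes with the lowest ratios were of another kind. Of the 10 lowest, 9 encode proteins of the root cell wall or root hair: extensins EXT12 (AT4G13390), EXT10 (AT5G06640), EXT6 (AT2G24980) and EXT13 (AT5G35190), the hydroxyproline-rich glycoprotein HRGP1 (AT3G54590), the leucine-rich repeat extensin LRX1 (AT1G12040), the proline-rich proteins PRP3 (AT3G62680) and PRP1 (AT1G54970), and the peroxidase RHS19 (AT5G67400), a root hair specific gene. Extensins and their relatives are structural glycoproteins that are cross-linked in the wall, and root hair cells make many of them. EXT12 was at 21.2, 23.0 and 22.6 FPKM in total mRNA and 1.88, 1.87 and 1.81 FPKM in ribosome-bound mRNA. HRGP1, the most abundant of the 9 per length, was at 74.4, 77.98 and 87.7 FPKM in total mRNA and 8.31, 7.12 and 8.36 FPKM in ribosome-bound mRNA. PRP3 was at 36.6, 36.2 and 38.1 FPKM in total mRNA and 4.70, 3.42 and 4.69 FPKM in ribosome-bound mRNA. In each of these genes the ribosome-bound libraries lay far below the total libraries, without overlap.

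The log2 ratios of these genes were -3.44 (SE 0.09, adjusted p = 2e-20) for EXT12, -3.37 (SE 0.07, adjusted p = 3.7e-22) for EXT10 and -3.19 (SE 0.07, adjusted p = 1e-22) for HRGP1. Those of the other 6 lay between -3.10 and -2.77. These genes were 987 to 2444 bases long, and the length-corrected values, from -3.52 to -2.62, were about as low. In the eIF4E mutant, whose libraries are independent of these, their log2 ratios ran from -3.85 to -3.25. Extensins are near-identical repeat proteins, and the labels do not say how reads shared among them were counted.

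Some of the lowest members of other lists are also known from root hairs; they were named for their low values, and no list of root hair genes was counted. The transcription factor genes RSL2 (AT4G33880) and LRL3 (AT5G58010), which act in root hair growth, had log2 ratios of -2.15 (adjusted p = 1.4e-09) and -2.25 (adjusted p = 1.1e-12). The receptor kinase gene PERK13 (AT1G70460) was at -2.07 (adjusted p = 1.5e-11) and the actin-depolymerising factor gene ADF11 (AT1G01750) at -1.72 (adjusted p = 4e-11). The expansin gene EXPA7 (AT1G12560), a wall-loosening protein of root hairs taken from the marker list, was at 5.43, 6.67 and 8.71 FPKM in total mRNA and 1.14, 0.576 and 1.57 FPKM in ribosome-bound mRNA. Its log2 ratio was -2.56 (SE 0.18, adjusted p = 2e-12). The wider list of expansins, extensins, xyloglucan endotransglucosylases and arabinogalactan proteins had, of 103 tested members, 45 higher and 39 lower and a median of 0.07, which lay below 0 when scaled by library size alone. With the length correction 19 were higher and 60 lower, and the median was -0.25. Its second highest member, the expansin-like gene EXLB1 (AT4G17030), was at 1.63 (adjusted p = 1.8e-18).

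**Figure D2:**
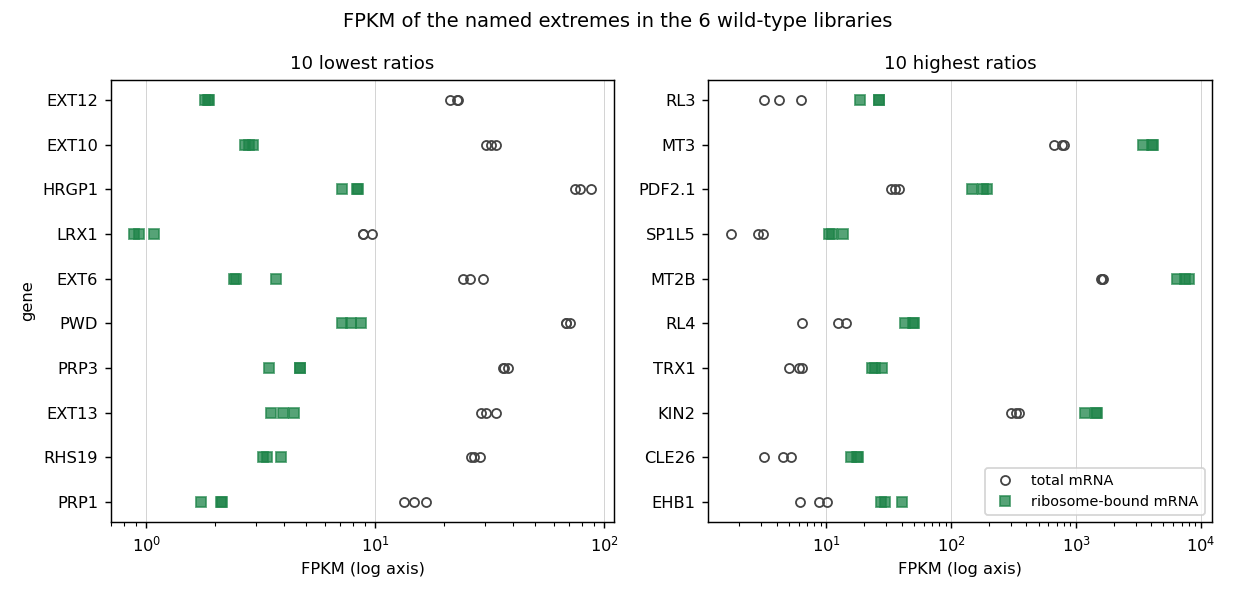
FPKM (log axis) of the 10 named genes with the lowest (left) and highest (right) ribosome-bound to total ratio in each of the 3 total (open circles) and 3 ribosome-bound (green squares) wild-type libraries. The 2 kinds of library do not overlap in any of the 20 genes, a trait of 71.4% of all genes tested on scaled counts. EXT12 falls from 21.2 to 23.0 FPKM down to 1.81 to 1.88 FPKM, and MT3 rises from 666 to 804 to 3462 to 4111 FPKM.

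Most markers of root cell types were lower on ribosomes. The list holds LRX1, EXPA7 and other root hair genes beside those of other root cells. Of 16 tested root markers of 18, 15 were lower and 1 higher, with a median log2 ratio of -1.33 (-1.54 to -1.16 in the single pairs) and -1.78 after the length correction. Their summed level was 2412 to 3036 FPKM in total and 1772 to 1963 FPKM in ribosome-bound mRNA. CASP1 (AT2G36100), which encodes a membrane protein of the Casparian strip in the endodermis, was at 27.7, 28.1 and 31.7 FPKM in total mRNA and 9.25, 10.8 and 9.81 FPKM in ribosome-bound mRNA. Its log2 ratio was -1.40 (SE 0.08, adjusted p = 4.4e-14). PYK10 (AT3G09260), for a beta-glucosidase of ER bodies, made up most of this sum, at 2523, 2154 and 2763 FPKM in total mRNA and 1692, 1656 and 1854 FPKM in ribosome-bound mRNA, a log2 ratio of -0.37 (adjusted p = 1.7e-06). The exception was SHR (AT4G37650), a transcription factor gene expressed in the stele: it was at 5.77, 5.13 and 7.10 FPKM in total mRNA and 9.87, 8.76 and 10.9 FPKM in ribosome-bound mRNA, a log2 ratio of 0.86 (SE 0.08, adjusted p = 2.2e-10). The root nutrient transporter gene PHT1;1 (AT5G43350), for phosphate uptake, was at -1.65 (adjusted p = 4.1e-17).

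Markers of the other cell types did not move alike. All 9 phloem and companion cell markers were higher, with a median of 0.57 and of 0.88 after the length correction, and their summed level was 212 to 243 FPKM in total and 347 to 377 FPKM in ribosome-bound mRNA. FTIP1 (AT5G06850), whose product helps the flowering signal FT leave companion cells, was at 4.46, 4.14 and 4.46 FPKM in total mRNA and 9.13, 9.34 and 7.93 FPKM in ribosome-bound mRNA. It is a long gene of 3081 bases, yet its log2 ratio was 1.16 (SE 0.08, adjusted p = 4.3e-13). SWEET11 (AT3G48740), a sucrose exporter gene, was at 1.13 (adjusted p = 4e-16), the companion cell sucrose transporter gene SUC2 (AT1G22710) at 0.40 (adjusted p = 1.2e-07) and the phloem transcription factor gene APL (AT1G79430) at 0.999 (adjusted p = 2.3e-11). Without the replicate block 7 of the 9 were higher and 0 lower, against 34.5% and 32.3% of all genes.

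Of 5 tested xylem markers, 3 were higher and 0 lower, with a median of 0.24 and, with the length correction, 0.96. The xylem peptidase gene XCP2 (AT1G20850) was at 24.1, 21.3 and 30.2 FPKM in total and 49.2, 52.9 and 59.3 FPKM in ribosome-bound mRNA, without overlap, a log2 ratio of 1.25 (SE 0.06, adjusted p = 2.6e-15). The long cellulose synthase gene CESA4 (AT5G44030) did not pass the test, at 0.12 (adjusted p = 0.16).

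Guard cell lineage markers were on the low side, with 0 higher and 7 lower of 9 tested, a median of -0.85 and -1.06 with the length correction. Their summed level was 70.0 to 76.9 FPKM in total and 37.1 to 43.8 FPKM in ribosome-bound mRNA. TMM (AT1G80080), a receptor-like protein gene of stomatal patterning, was at 8.20, 7.21 and 8.10 FPKM in total mRNA and 2.31, 2.20 and 2.88 FPKM in ribosome-bound mRNA. Its log2 ratio was -1.53 (SE 0.11, adjusted p = 1.8e-12). The potassium channel gene KAT1 (AT5G46240) and the patterning peptide gene EPF2 (AT1G34245) did not pass, at -0.12 (adjusted p = 0.16) and 0.01 (adjusted p = 0.97).

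Of the 6 epidermis markers, 1 was higher and 5 were lower, with a median of -0.87. With the length correction 2 were higher and 3 lower, with a median of -0.53. GL2 (AT1G79840), a homeobox gene of epidermal cell fate, and CER1 (AT1G02205), a gene of wax alkane synthesis, were at -1.95 (adjusted p = 7.6e-12) and -1.49 (adjusted p = 3.8e-17), whereas the abundant lipid transfer protein gene LP1 (AT2G38540) was at 1.19 (adjusted p = 1.5e-16). The 4 mesophyll markers had a median of 0.05, which lay below 0 when scaled by library size alone and was -0.18 with the length correction. Of the 4 tested shoot meristem markers 2 were higher and 0 lower. WUS, CLV3, UFO, CUC1 and CUC2, markers of small meristem domains, did not reach the filter. The part that cell type plays in the ratios of the other classes was not tested.

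**Figure D3:**
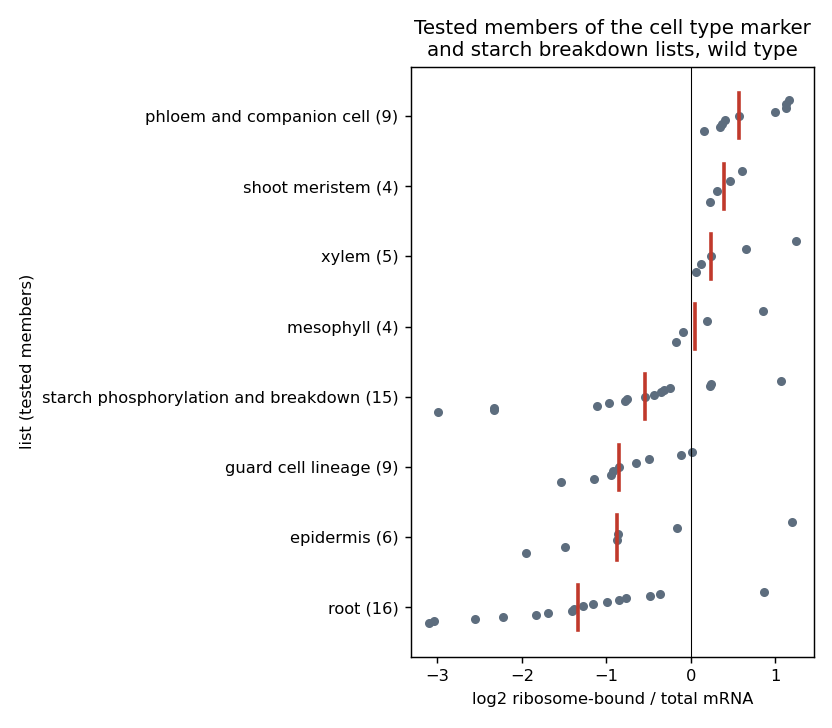
Log2 ratio of ribosome-bound to total mRNA in wild type (horizontal axis) for each tested member of the cell type marker lists and of the starch breakdown list (grey points), with the list median (red bar). Root markers lie mostly below 0 with a median of -1.33, all 9 phloem markers lie above 0, and 3 starch genes stand apart below -2.

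Among the 10 lowest genes, 1 was not a root gene: PWD (AT5G26570), which encodes phosphoglucan water dikinase, an enzyme that phosphorylates starch so that it can be degraded at night. It was at 67.6, 68.0 and 70.5 FPKM in total mRNA and 7.80, 7.14 and 8.67 FPKM in ribosome-bound mRNA, a log2 ratio of -2.99 (SE 0.06, adjusted p = 5.8e-23). A list of 15 starch phosphorylation and breakdown genes was drawn up after this value was seen. SEX1 (AT1G10760), the glucan water dikinase gene that acts before PWD, was at 74.3, 79.6 and 73.6 FPKM in total mRNA and 13.7, 12.4 and 15.1 FPKM in ribosome-bound mRNA. DPE2 (AT2G40840), a glucanotransferase gene needed for the use of maltose, was at 74.4, 76.7 and 69.0 FPKM in total mRNA and 14.5, 13.04 and 12.3 FPKM in ribosome-bound mRNA. Both were lower without overlap, with log2 ratios of -2.33 (SE 0.06, adjusted p = 1.1e-20) and -2.32 (SE 0.06, adjusted p = 2.3e-21).

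The rest of the starch list was nearer to the average. The limit dextrinase gene LDA (AT5G04360) was at -1.11 (adjusted p = 1.4e-14), and the starch phosphatase gene LSF2 (AT3G10940), the shortest of the list, was higher (1.06, adjusted p = 1.5e-15). Of the 15 genes 3 were higher and 12 lower, with a median of -0.55. These are long genes, PWD having 3794, SEX1 4670 and DPE2 3263 bases. The list median was -0.09 with the length correction, while PWD stayed at -2.01, DPE2 at -1.52 and SEX1 at -1.12. The sugar starvation genes, 15 tested, had 3 higher and 8 lower and a median of -0.23 (-0.04 with the length correction).

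Genes for the translation machinery split by length and by kind. Ribosomal proteins, the small structural proteins of the ribosome, were mostly higher: of 19 tested large-subunit proteins of the cytosolic ribosome 18 were higher and 0 lower, with a median log2 ratio of 0.86. Of 18 small-subunit proteins 14 were higher and 1 lower, with a median of 0.51. Plastid and mitochondrial ribosomal proteins had 28 higher and 0 lower of 31 and a median of 0.63. These medians became 0.10, -0.13 and -0.05 with the length correction. Only the genes with a matching symbol were in these lists, not the whole families.

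RPL18 (AT3G05590), the protein that the cited immunopurification methods tag, had the highest ratio among the ribosomal protein genes in the lists above. It was at 1753, 1729.8 and 1739 FPKM in total mRNA and 6221, 6438 and 5703 FPKM in ribosome-bound mRNA. The ribosome-bound libraries were all at least 3 times the total libraries, with a log2 ratio of 1.96 (SE 0.06, adjusted p = 6.3e-20) and of 1.18 with the length correction. The next highest gene of the large-subunit list, RPL27AB (AT1G23290), was at 165, 163 and 164 FPKM in total and 424, 435 and 448 FPKM in ribosome-bound mRNA. Its log2 ratio was 1.55 (adjusted p = 5.3e-19). Whether reads of a transgene are part of the RPL18 count was not tested.

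Initiation factors and poly(A)-binding proteins had no common direction, with 15 higher and 16 lower of 34 and a median of -0.005, which was above 0 with upper-quartile scaling (0.03). The cap-binding protein genes named here, EIF4E and LSP1, were both higher. EIF4E (AT4G18040), the gene mutated in the other genotype, was at 45.8, 44.0 and 44.2 FPKM in total mRNA and 71.8, 92.9 and 87.2 FPKM in ribosome-bound mRNA. Its log2 ratio was 1.05 (SE 0.07, adjusted p = 1.1e-13), without overlap. LSP1 (AT5G35620), the isoform eIF(iso)4E, was at 32.2, 34.0 and 36.1 FPKM in total mRNA and 56.2, 64.0 and 60.2 FPKM in ribosome-bound mRNA, a log2 ratio of 0.96 (SE 0.06, adjusted p = 3.1e-14). The lowest of the list were 2 subunits of eIF3, the large scaffold of initiation: EIF3A (AT4G11420) was at 43.6, 45.3 and 45.5 FPKM in total mRNA and 14.9, 14.01 and 17.4 FPKM in ribosome-bound mRNA (log2 ratio -1.40, adjusted p = 3.1e-17), and EIF3C (AT3G56150) had -1.12 (adjusted p = 3.1e-15). The smaller eIF3 subunit genes EIF3G1 and EIF3K, named after their values were seen, were higher, at 0.43 (adjusted p = 8.4e-08) and 0.48 (adjusted p = 1.6e-08).

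Of the poly(A)-binding protein genes, whose products coat the mRNA tail, PAB2, PAB4 and PAB8 were lower and PAB6 was higher. PAB2 (AT4G34110) was at 185, 190.4 and 191 FPKM in total mRNA and 96.7, 100.5 and 99.3 FPKM in ribosome-bound mRNA, a log2 ratio of -0.79 (SE 0.05, adjusted p = 1.2e-13), and PAB4 (AT2G23350) and PAB8 (AT1G49760) were at -0.50 (adjusted p = 2.3e-09) and -0.58 (adjusted p = 2.9e-10). With the length correction PAB2 stayed lower (-0.32), and PAB4 and PAB8 did not pass (-0.06 and -0.03). PAB6 (AT3G16380), the highest member of the list, was at 0.862, 0.893 and 1.04 FPKM in total mRNA and 2.39, 1.82 and 1.79 FPKM in ribosome-bound mRNA, a log2 ratio of 1.23 (SE 0.19, adjusted p = 1.6e-06) and of 1.24 with the length correction. The elongation factor 2 gene LOS1 (AT1G56070) was at -0.96 (adjusted p = 3.5e-15). TCTP (AT3G16640), a growth-related gene that in animals is known to be regulated in translation, was at 1809, 1630.0 and 1814 FPKM in total mRNA and 1428, 1513 and 1252 FPKM in ribosome-bound mRNA. Each ribosome-bound library lay below each total library in FPKM, but on the scaled counts the 3 pairs gave -0.19, 0.05 and -0.41. The log2 ratio was -0.18 (SE 0.06, adjusted p = 0.0096), and without the replicate block it did not pass (adjusted p = 0.13). It was -0.83 with the length correction.

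Photosystem and electron transport proteins, the nuclear-encoded subunits of the thylakoid complexes, were higher in 33 of 35 genes and lower in 1, with a median of 0.72 (0.66 to 0.77 in the single pairs). PSAN (AT5G64040), a small subunit of photosystem I, was at 611, 542 and 624 FPKM in total mRNA and 1493, 1540.4 and 1901 FPKM in ribosome-bound mRNA. PSBR (AT1G79040), a subunit of photosystem II, was at 2636, 2366 and 2782 FPKM in total mRNA and 6460.3, 6212 and 7586 FPKM in ribosome-bound mRNA. Neither overlapped between groups, and the log2 ratios were 1.61 (SE 0.06, adjusted p = 2.2e-18) and 1.52 (SE 0.06, adjusted p = 2.6e-18). The ATP synthase gamma subunit gene ATPC1 (AT4G04640) was the exception (-0.27, adjusted p = 3.1e-05). The list's median length was 892 bases, and its median with the length correction was 0.01.

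Light-harvesting proteins, which bind the antenna chlorophyll, had no common direction. Of 18 genes 8 were higher and 5 lower, with a median of 0.10, which lay below 0 when scaled by library size alone, and of -0.31 with the length correction, where 1 was higher and 12 lower. CAB1 (AT1G29930), the most abundant, was at 3283, 2738 and 3910.3 FPKM in total mRNA and 2516, 1872 and 2498 FPKM in ribosome-bound mRNA. Its groups did not overlap, and the log2 ratio was -0.38 (SE 0.06, adjusted p = 1.1e-06), which did not pass without the replicate block (adjusted p = 0.059). The near-identical gene LHB1B1 (AT2G34430) was at -0.74 (adjusted p = 8.4e-11), while CAB2 (AT1G29920) did not pass (0.06, adjusted p = 0.47). LHCB4.3 (AT2G40100) was higher (0.53, adjusted p = 7.1e-09). Reads shared among the LHCB1 copies may be split between them.

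For carbon fixation, RBCS1A (AT1G67090), a small subunit gene of Rubisco and the most abundant mRNA of the libraries per length among the genes named here, was at 9068, 8166 and 9126 FPKM in total mRNA and 16180.0, 12387 and 14944 FPKM in ribosome-bound mRNA. It was higher without overlap (0.86, SE 0.06, adjusted p = 6.9e-13). RCA (AT2G39730), the activase that keeps Rubisco open, was lower (-0.23, adjusted p = 0.00039), but not without the block (adjusted p = 0.055). Of 20 Rubisco and Calvin cycle genes 11 were higher and 7 lower, with a median of 0.21. After the length correction 6 were higher and 6 lower, with a median of -0.05. The highest were the short regulator genes CP12-2 (AT3G62410) at 1.20 (adjusted p = 1.9e-16) and CP12-3 (AT1G76560) at 1.69 (adjusted p = 9.1e-13). Chlorophyll synthesis genes had 5 higher and 12 lower of 21 and a median of -0.16 (-0.06 with the length correction). There, the long magnesium chelatase subunit gene GUN5 (AT5G13630), of 4528 bases, was lowest (-1.24, adjusted p = 4.6e-16), and its small activator GUN4 (AT3G59400) highest (0.64, adjusted p = 6.4e-11).

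Clock genes feed back on each other and peak at set times of day, those called evening genes from afternoon to dusk. ELF4 (AT2G40080), a small protein of the evening complex, was at 58, 60.05 and 57.5 FPKM in total mRNA and 186, 185 and 174 FPKM in ribosome-bound mRNA. Its relative ELF4-L4 (AT1G17455) was at 8.92, 7.84 and 9.03 FPKM in total mRNA and 23.8, 27.4 and 25.5 FPKM in ribosome-bound mRNA. Neither overlapped, and their log2 ratios were 1.78 (SE 0.06, adjusted p = 1.9e-19) and 1.72 (SE 0.09, adjusted p = 4e-15). The partner of ELF4 in the complex, ELF3 (AT2G25930), was lower (-1.012, adjusted p = 4.2e-15), as were GI (AT1G22770), at 6.12, 5.92 and 4.91 FPKM in total and 2.37, 1.98 and 2.07 FPKM in ribosome-bound mRNA (-1.26, adjusted p = 3.4e-13), and TOC1 (AT5G61380) (-0.62, adjusted p = 8.5e-11). Of 17 genes of the evening list 9 were higher and 5 lower, or 10 and 2 with the length correction.

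Morning clock genes peak around dawn, far from the hour sampled. CCA1 (AT2G46830) was at 2.24, 2.19 and 2.86 FPKM in total and 1.31, 1.49 and 1.43 FPKM in ribosome-bound mRNA, lower at -0.63 (adjusted p = 0.00018), and its partner LHY (AT1G01060) did not pass (-0.13, adjusted p = 0.21). PRR7 (AT5G02810) was lower (-1.499, adjusted p = 3.8e-11), and RVE2 (AT5G37260), a short relative of CCA1, was higher (0.76, adjusted p = 3e-13). With the length correction TOC1 and CCA1 no longer passed (-0.03 and -0.20), GI was lower by less (-0.19, adjusted p = 0.049), ELF4 remained higher (0.72) and LHY was higher (0.67).

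Flowering regulators were more often higher, with 22 higher and 7 lower of 37 and a median of 0.31. They had 17 higher and 6 lower and a median of 0.22 with the length correction. FT (AT1G65480), the mobile flowering signal made in companion cells, was at 3.52, 2.53 and 2.53 FPKM in total mRNA and 7.54, 5.75 and 8.03 FPKM in ribosome-bound mRNA. FLC (AT5G10140), a repressor of FT, was at 2.99, 3.004 and 2.07 FPKM in total mRNA and 8.53, 6.97 and 7.58 FPKM in ribosome-bound mRNA. Both were higher without overlap, with log2 ratios of 1.45 (SE 0.15, adjusted p = 1.3e-09) and 1.66 (SE 0.13, adjusted p = 1.9e-11), or 0.68 and 1.14 with the length correction. An antisense transcript overlaps FLC, and since strand use in the counting is not stated, its reads cannot be told apart. SPL4 (AT1G53160), an age-pathway activator, was at 1.52 (adjusted p = 5.7e-08), the integrator AGL20 (AT2G45660), also called SOC1, at 0.67 (adjusted p = 3e-09), and the long gene FCA (AT4G16280), an RNA-binding regulator of FLC, at -1.29 (adjusted p = 3.8e-15).

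Auxin-response genes were on the high side, and with the length correction the Aux/IAA list remained so. Aux/IAA proteins are short-lived repressors of auxin signalling, and all 24 tested genes were higher, with a median of 0.71 and of 0.43 with the length correction, where 17 were higher and 1 lower. That share stands against 30% of all genes higher. The gene for IAA27, listed as PAP2 (AT4G29080), was at 20.0, 17.3 and 20.3 FPKM in total mRNA and 56.2, 50.1 and 60.8 FPKM in ribosome-bound mRNA. Its log2 ratio was 1.68 (SE 0.06, adjusted p = 1.2e-18), without overlap, and 1.45 with the length correction. The lowest member, AXR3 (AT1G04250), was at 0.15 (adjusted p = 0.011), did not pass without the block (adjusted p = 0.08), and its value was below 0 with the length correction (-0.34). Of 14 small auxin up-regulated genes, which promote cell expansion, 14 were higher and 0 lower, with a median of 1.34. SAUR24 (AT5G18080) was at 7.23, 7.26 and 9.03 FPKM in total mRNA and 25.9, 25.3 and 23.1 FPKM in ribosome-bound mRNA, a log2 ratio of 1.799 (adjusted p = 2e-11). The SAUR median with the length correction was 0.23. In that fit 3 of the 14 genes were higher and 0 lower, against 30% of all genes higher.

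Signalling peptide genes had 53 higher and 6 lower of 69 and a median of 1.15, which became -0.02 with the length correction. The gene CLE22 (AT5G12235) of the CLE family was at 1.007, 0.578 and 0.971 FPKM in total and 5.63, 4.71 and 7.23 FPKM in ribosome-bound mRNA, the highest log2 ratio in the list (2.90, SE 0.31, adjusted p = 4.4e-09), and the root growth factor gene RGF5 (AT5G51451) was at -1.6 (adjusted p = 0.0004). Lipid transfer proteins, thionins and defensins, all small secreted proteins, had 19 higher and 2 lower of 21 and a median of 0.997, with -0.05 after the length correction. Copper and zinc proteins with the metallothioneins had 11 higher and 1 lower of 13 and a median of 0.69 (-0.11 with the length correction).

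Touch and calcium response genes, mostly calmodulins and their relatives, had 18 higher and 1 lower of 22 and a median of 0.94. This became 12 higher and 3 lower and a median of 0.19 with the length correction. The calmodulin gene CAM5 (AT2G27030) was at 34.0, 30.6 and 33.8 FPKM in total mRNA and 94.0, 106 and 107 FPKM in ribosome-bound mRNA. It was 3.45-fold higher, log2 ratio 1.79 (SE 0.06, adjusted p = 5.1e-19), although its listed length was 2330 bases, and it was the list member furthest above the length trend (2.21). The calcium-dependent kinase gene CPK28 (AT5G66210) was at 85.4, 109.8 and 51.1 FPKM in total mRNA and 25.2, 41.5 and 16.6 FPKM in ribosome-bound mRNA. Its replicate 2 was high and its replicate 3 low in both kinds of library, and the log2 ratio was -1.44 (SE 0.06, adjusted p = 5.3e-17). JAZ jasmonate repressors had 7 higher and 3 lower of 12 and a median of 0.31, with JAZ12 (AT5G20900) highest (0.96, adjusted p = 1.1e-14). The length correction turned this list around, to 2 higher and 7 lower and a median of -0.17. JAZ8 (AT1G30135) was also uneven between replicates, at 27.7, 30.9 and 9.44 FPKM in total and 38.4, 59.8 and 10.3 FPKM in ribosome-bound mRNA, so that the groups overlapped although each pair was higher (0.78, adjusted p = 1.1e-07, which was 0.29 without the block).

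Transcription factor families differed. ERF and DREB factors had 47 higher and 3 lower of 59 and a median of 0.49 (0.16 with the length correction), led by CRF8 (AT1G71130) at 1.19 (adjusted p = 1.6e-14). Lowest was RAP2.11 (AT5G19790) at -1.81 (adjusted p = 5e-08), a gene known from roots. MYB, bHLH and zinc finger factors had medians of 0.21, 0.24 and 0.37, and -0.09, 0.08 and 0.05 with the length correction. NAC and WRKY factors had medians of 0.08 and 0.09, both below 0 when scaled by library size alone (-0.11 and -0.15 with the length correction). WRKY19 (AT4G12020), a fusion of a WRKY domain with an immune receptor and 6070 bases long, was at -1.91 (adjusted p = 1.4e-17).

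Histones, the small proteins that package DNA, were higher in 21 of 23 genes and lower in 2, with a median of 0.99 and of 0.08 with the length correction. HTB2 (AT5G22880), a histone H2B gene, was at 98.2, 91.2 and 106 FPKM in total mRNA and 221, 224 and 258 FPKM in ribosome-bound mRNA, a log2 ratio of 1.39 (adjusted p = 7e-18). Both lower members are linker histone relatives, HON4 (AT3G18035) of 1903 bases at -0.22 (adjusted p = 0.0011) and HON5 (AT1G48620) of 1979 bases at -0.20 (adjusted p = 0.0021). HON4 did not pass without the block (adjusted p = 0.099). HON5 was above 0 with the length correction (0.05). Ubiquitin and proteasome genes had 60 higher and 10 lower of 79 and a median of 0.46 (0.02 with the length correction), with UBQ1 (AT3G52590), a ubiquitin fusion to a ribosomal protein, at 1.52 (adjusted p = 9.6e-19).

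Genes with a conserved upstream open reading frame encode a peptide in the mRNA leader that lowers translation of the main protein in response to sugars, polyamines or other metabolites. Of 28 tested genes 20 were higher and 1 lower on ribosomes, with a median of 0.47 (0.45 to 0.48 in the single pairs). The length correction raised this to 0.64, with 27 higher and 0 lower, against 30% of all genes higher. SAMDC (AT3G02470), a polyamine synthesis gene, was at 589, 606 and 547 FPKM in total mRNA and 727, 709.7 and 596 FPKM in ribosome-bound mRNA. Its groups overlapped, and with the replicates paired the log2 ratio was 0.36 (SE 0.05, adjusted p = 9.3e-07). VTC2 (AT4G26850), the regulated enzyme gene of ascorbate synthesis, was at 292, 260.4 and 280.3 FPKM in total mRNA and 376, 324 and 347 FPKM in ribosome-bound mRNA, without overlap (0.47, SE 0.05, adjusted p = 3.4e-09).

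The sucrose-repressed bZIP factor gene GBF6 (AT4G34590), also called bZIP11, was at 28.6, 27.6 and 27.0 FPKM in total mRNA and 52.4, 52.2 and 40.4 FPKM in ribosome-bound mRNA. It was higher without overlap (0.94, SE 0.06, adjusted p = 6.6e-13). The MYB factor gene MYB34 (AT5G60890) was at 45.5, 39.97 and 54.5 FPKM in total mRNA and 99.9, 93.8 and 121 FPKM in ribosome-bound mRNA. It was the second highest member (1.31, SE 0.05, adjusted p = 2e-17), after another bZIP gene, bZIP1 (AT5G49450), at 1.36 (adjusted p = 3.3e-11). Lowest was the phosphate exporter gene PHO1 (AT3G23430) at -0.14 (adjusted p = 0.022), which did not pass without the block (adjusted p = 0.18) and was above 0 with the length correction (0.46). Recovery with ribosomes does not tell a ribosome on the upstream frame from one on the main frame.

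Noncoding RNAs were on the low side once length was considered. Of 238 tested long and antisense noncoding RNAs, 73 were higher and 99 lower, with a median of -0.10, and with the length correction 22 were higher and 141 lower and the median was -0.53. IPS1 (AT3G09922), a phosphate starvation RNA that binds miR399, was at 115, 95.4 and 100.2 FPKM in total mRNA and 46.9, 38.5 and 32.4 FPKM in ribosome-bound mRNA. Its relative AT4, listed as AT5G03545, was at 1135, 1046 and 1101 FPKM in total mRNA and 554, 496 and 394 FPKM in ribosome-bound mRNA. Both were lower without overlap, with log2 ratios of -1.26 (SE 0.07, adjusted p = 6.9e-15) for IPS1 and -1.05 (SE 0.07, adjusted p = 1.2e-13) for AT4. Both are short, so that the length-corrected values were lower still, -2.42 and -2.03. GUT15 (AT2G18440), the gene of an unstable transcript, was at -1.26 (adjusted p = 6.2e-15).

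Of 54 tested precursors of microRNAs and ta-siRNAs, 14 were higher and 19 lower, with 2 higher and 32 lower and a median of -1.07 with the length correction. The ta-siRNA precursors, which are cut by a microRNA before they give small RNAs, included both genes fixed by name. TAS3 (AT3G17185) was at 20.5, 14.8 and 21.2 FPKM in total mRNA and 34.1, 23.1 and 24.4 FPKM in ribosome-bound mRNA. TAS1C (AT2G39675) was at 7.48, 6.55 and 7.78 FPKM in total mRNA and 9.62, 8.98 and 8.79 FPKM in ribosome-bound mRNA. The groups did not overlap, and the log2 ratios were 0.67 (SE 0.08, adjusted p = 6.9e-08) and 0.47 (SE 0.10, adjusted p = 0.00017). Neither passed with the length correction (0.01 and -0.13). MIR841a (AT4G13564) was at 0.847, 2.98 and 3.06 FPKM in total and 0.461, 0 and 0 FPKM in ribosome-bound mRNA, too low for a stable ratio, and MIR825 (AT2G26211) at -2.75 (adjusted p = 9.9e-05). Of the small structural RNAs, 43 of 1052 passed the filter, with 5 higher and 19 lower and a median of -0.77; they are poorly recovered by poly(A) selection.

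By the reference's biotypes, protein-coding genes (18735 tested) had a length-corrected ratio at least 2-fold lower in 4.83% of genes. It was 24.7% of 142 genes listed as lncRNA, 36.4% of 99 listed as other ncRNA, 52.1% of 48 listed as miRNA, 57.6% of 33 listed as snoRNA and 26.1% of 88 transcribed pseudogenes. At least 2-fold higher were 1.33% of the protein-coding genes and 1.41%, 3.03%, 0%, 0% and 0% of these. The 80 genes listed simply as pseudogenes went both ways, with 11.3% at least 2-fold higher, 16.3% at least 2-fold lower and a length-corrected median of -0.07. Before the correction, other ncRNA had 47 genes higher and 28 lower, with a median log2 ratio of 0.24. It was 31 and 68 for lncRNA (median -0.24), 9 and 19 for miRNA (-0.41) and 1 and 16 for snoRNA (-0.95). Transcribed pseudogenes had 27 and 35 (0.04). Overlap with coding genes and strand can blur these values, since strand use in the counting is not stated. The length trend was fitted over all genes tested, 96.9% of them protein-coding. The median length was 167 bases in the list of microRNA and ta-siRNA precursors and 82 bases in that of small structural RNAs. Whether the trend holds for noncoding RNAs was not tested.

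Long genes for receptors and chaperones were on the low side. Immune receptors of the NLR family, which detect pathogen effectors, were lower in all 18 tested genes, with a median of -0.73, and their median length was 3301 bases. With the length correction 5 were higher and 4 lower and the median was 0.07. RPP4 (AT4G16860) was at 13.6, 14.9 and 12.5 FPKM in total and 4.34, 4.64 and 4.73 FPKM in ribosome-bound mRNA (-1.44, adjusted p = 3.8e-16), and the helper receptor gene ADR1-L1 (AT4G33300) at -0.43 (adjusted p = 6.8e-08), or 0.36 with the length correction. Receptor-like kinases had 5 higher and 102 lower of 130, with a median of -0.50 and -0.03, in that order of fits.

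Heat shock proteins had 3 higher and 21 lower of 27 and a median of -0.64 (-0.26 with the length correction). Endoplasmic reticulum folding and secretion genes had 2 higher and 18 lower of 24 and a median of -0.37 (-0.19), with the chaperone gene BIP1 (AT5G28540) at -0.90 (adjusted p = 1.5e-14). Cytochrome P450s had 13 higher and 88 lower of 132 and a median of -0.34 (-0.22); the thalianol pathway gene CYP705A5 (AT5G47990), expressed in roots, was at -1.78 (adjusted p = 1e-18). The list of SR proteins and splicing regulators, which also holds glycine-rich RNA-binding protein genes, had a median of -0.08. With the length correction its median was -0.29, and 2 higher and 21 lower of 32 passed. SR34b (AT4G02430) was lowest at -1.93 (adjusted p = 2.9e-16).

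Other lists had medians close to the average. The medians were -0.26 for 10 pentatricopeptide repeat proteins, -0.19 for 168 pseudogenes and transposable elements, -0.05 for 40 tubulins, actins and SPIRAL1-like genes, -0.04 for 23 mRNA decay factors, 0.05 for 19 phosphate starvation genes, 0.06 for 34 aquaporins and proton pumps and 0.07 for 26 F-box proteins. With the length correction the medians ran from -0.25 to 0.14, but some lists leaned to one side. In that fit 30% of all genes were higher and 31.8% lower. Aquaporins and proton pumps had 5 higher and 22 lower of 34, and pseudogenes and transposable elements 38 and 79 of 168. The mRNA decay factors had 12 higher and 2 lower of 23. The phosphate sensor gene SPX1 (AT5G20150) was at 0.77 (adjusted p = 6.6e-13) and ADF4 (AT5G59890), an actin-depolymerising factor gene of the shoot, at 1.67 (adjusted p = 4.1e-18).

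**Figure D4:**
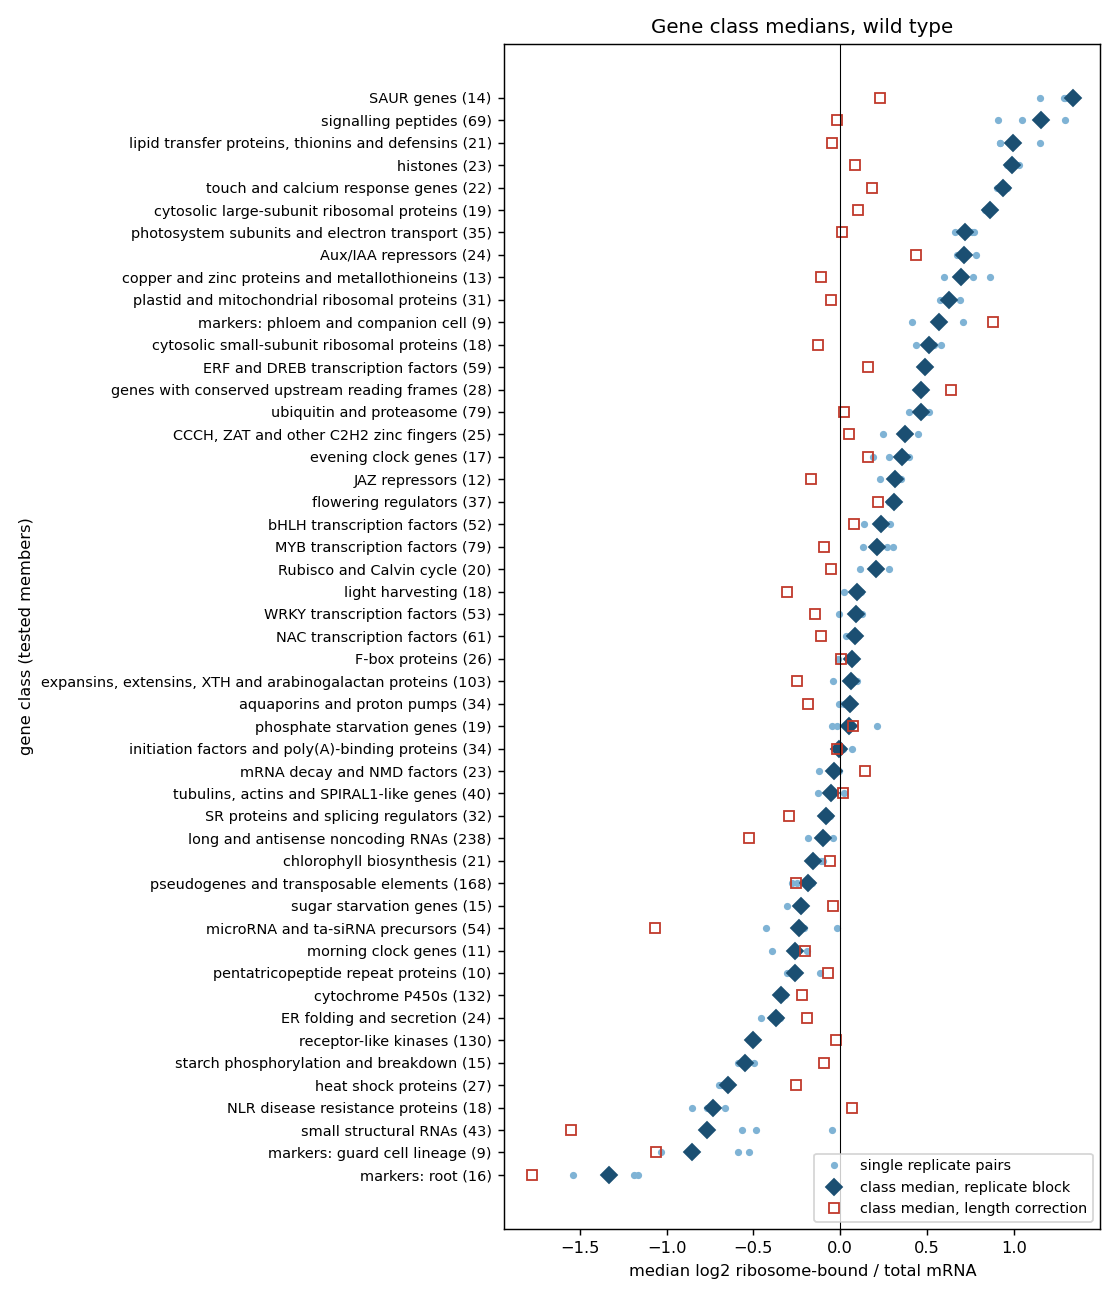
Median log2 ratio of ribosome-bound to total mRNA in wild type (horizontal axis) for each list with at least 9 tested members (vertical axis, number tested in brackets): dark diamonds for the fit with the replicate block, pale points for the 3 single replicate pairs, and open red squares for the length-corrected fit. SAUR genes are highest at 1.34 and root markers lowest at -1.33; most red squares lie near 0, and root, guard cell, small structural RNA and microRNA precursor lists lie at or below -1.06.

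The eIF4E mutant libraries share no sample with the wild type. There was a Pearson correlation of 0.92 between the log2 ratios of both genotypes across genes, which are not independent replicates. Root markers had a median of -1.65 in the mutant, phloem markers 0.73, Aux/IAA genes 0.59 and upstream-frame genes 0.35. The test of the difference called 2090 genes with a higher (10.8%) and 2329 with a lower ratio (12%) in the mutant. The spread with length was narrower in the mutant, with medians of 0.62 in the shortest and -0.50 in the longest bin. Of 18 small-subunit ribosomal protein genes 13 had a lower ratio in the mutant and 0 a higher one, with a class median of 0.10. Light-harvesting genes had 11 lower and 0 higher of 18. The median lengths of these lists were 938 and 1155 bases, against 1516 bases over all genes, and the difference was not corrected for length. Without the replicate block the difference called only 335 higher and 444 lower genes over all, without replicate 1 it called 709 and 1064, without replicate 2 789 and 1186, and without replicate 3 2515 and 2526.

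Differences for single genes come from a joint fit of all 12 libraries. EIF4E (AT4G18040), the mutated gene, was at 8.28, 24.2 and 8.29 FPKM in total and 12.3, 11.6 and 13.9 FPKM in ribosome-bound mRNA of the mutant, below every wild-type library. The second total library of the mutant stood apart from the other 2. The difference of the log2 ratio was -1.009 (adjusted p = 0.0082), and without replicate 2 it was -0.22 and did not pass (adjusted p = 0.38). TCTP had a log2 ratio of -1.29 in the mutant, a difference of -1.08 (adjusted p = 1.3e-07) that passed without any 1 of the replicates and without the block. RPL18 had 2.07 in the mutant and 1.96 in wild type, a difference of 0.14 that did not pass the test (adjusted p = 0.18). PWD, SEX1 and DPE2 were at -2.31, -1.81 and -1.91 in the mutant, less low than in wild type by 0.71, 0.55 and 0.44 (adjusted p = 1e-05, 0.00028 and 0.00038), in the fit with the block.

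**Figure D5:**
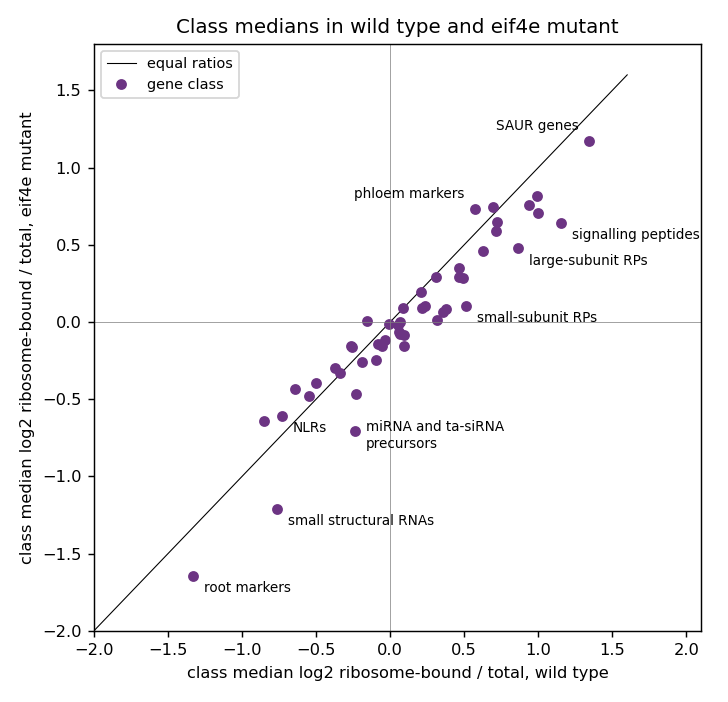
Median log2 ratio of ribosome-bound to total mRNA in wild type (horizontal axis) and in the eIF4E mutant (vertical axis) for each list with at least 9 tested members; the line marks equal ratios. The lists lie along the line; root markers are lowest in both (-1.33 and -1.65), and small-subunit ribosomal proteins lie below the line at 0.51 and 0.10.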

How the data were processed

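Total and immunopurified ribosome-bound mRNA was sequenced from 3 replicates each of wild type and an eIF4E mutant. Reads were aligned with TopHat2 2.0.11 to TAIR10, per the submitters' processing notes; the counting program and its use of strand are not given in the sources used here. The authors deposited raw counts per gene and FPKM values, and gene length was computed from their ratio, scaled by gene spans of the reference table. A gene missing from a table was set to 0, and 3308 genes were missing from at least 1 wild-type table, none with over 51 counts in another.

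Genes with a mean of at least 1 FPKM in wild type were tested with edgeR 4.0.16 in R 4.3.3 (quasi-likelihood, TMM scaling, replicate number as a block, Benjamini-Hochberg adjustment). The block left 2 residual degrees of freedom per gene, beside 22.8 prior ones from the spread shared among genes. Very small p-values thus rest largely on that shared spread. HRGP1 had an adjusted p of 1e-22 with the block and 6.4e-06 without it. An exact permutation test of 3 against 3 that ignores the pairing could not go below p = 0.1, and a paired one would have a higher floor. The length correction entered a loess fit of each library on gene length as offsets. limma 3.58.1 and DESeq2 1.42.0 served as alternatives, and tables were made in Python 3.11.15. The script was tested on simulated counts. Pairing came from the labels: deviations of same-numbered libraries correlated at 0.3525, 0.7935 and 0.7086, and in the deposited index table each wild-type library number covered 1 total and 1 ribosome-bound library.

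Named genes were the 10 highest and 10 lowest ratios among genes with a symbol, a mean of at least 5 FPKM and the same sign in all 3 pairs, the 2 highest and 2 lowest of each list, and a set of fixed genes. A part of that rule on protein length could not be applied, because no protein lengths were used here. The members and lists were chosen with earlier results of these data known. After values were seen, genes of other function that share a symbol were taken out of lists (among them FDH, FLS2, CEP, PAB1 and ARF3 homonyms), and the starch list, EXPA7, CASP1, SUC2 and APL were added to what the text names. Reference names came from a RefSeq table of another annotation release, which held 25710 of 25835 genes. Its gene spans were used only to scale the lengths, and no coordinates are printed.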

Additional observations from a re-analysis of the deposited data

Results flagged for a closer look

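For these genes the ratio of ribosome-bound to total mRNA differed between the eIF4E mutant and wild type at an adjusted p below 0.05 in edgeR's interaction test over 12 libraries, with the replicate block. Only genes named above were considered, so most genes with a difference are not listed. Each value is the mutant's log2 ratio minus that of wild type, from the joint fit of both genotypes. Groups of 3 are too small for a test of single outlying libraries. None of these differences was followed further, and their causes were not tested. All 49 kept their sign under each other fit of the difference, but 10 passed without the replicate block, 26 without replicate 1, 29 without replicate 2 and 45 without replicate 3. Over all genes tested, 2090 higher and 2329 lower in the mutant became 335 and 444 without the block.

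Lower in the mutant were the translation-related genes TCTP at -1.08, EIF4E at -1.009 (-0.22 without replicate 2, where 1 mutant library of total mRNA stood apart), UBQ1 at -0.67, PAB4 at -0.47 and RPL27AB at -0.28. Root hair and wall genes, already low in wild type, were lower still: PRP1 at -0.90, EXT6 at -0.73, EXT13 at -0.68, PRP3 at -0.68 and HRGP1 at -0.47. Noncoding RNAs were lower too, with TAS3 at -0.72, TAS1C at -0.69, AT4 (AT5G03545) at -0.70 and IPS1 at -0.59. Short genes with high ratios in wild type were less high: RL3 at -0.76, ELF4-L4 at -0.75, CP12-3 at -0.74, PDF2.1 at -0.71, EHB1 at -0.58, MT2B at -0.45, KIN2 at -0.42, ELF4 at -0.39, ADF4 at -0.38, LP1 at -0.37 and MT3 at -0.36. Photosynthesis genes were LHB1B1 at -0.53, CAB1 at -0.50, PSBR at -0.40, RBCS1A at -0.37 and CAB2 at -0.32. The rest were SWEET11 at -0.35, CRF8 at -0.32, PAP2 (IAA27) at -0.31 and GBF6 at -0.30.

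Higher in the mutant, mostly from low ratios in wild type, were the starch genes PWD at 0.71, SEX1 at 0.55, DPE2 at 0.44 and LDA at 0.41. Long genes among them were WRKY19 at 0.69, RPP4 at 0.53, FCA at 0.48, EIF3A at 0.31, GUN5 at 0.27 and FTIP1 at 0.47, the last being high in wild type. The others were TMM at 0.45, CER1 at 0.33, ELF3 at 0.26, BIP1 at 0.24 and HON5 at 0.21.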

How the results depend on the processing

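Among named genes that passed the test, no setting other than the length correction reversed the sign of the ratio. For named genes that did not pass, only a pass with the opposite sign was counted, and only the length correction gave any. Changes of sign without a pass were not counted for these genes. The counts of genes higher and lower stayed within 1.5 times under all alternatives; 7295 to 7487 genes were higher and 7071 to 7582 lower without 1 replicate. At least 2-fold higher were 2092 to 2226 genes without 1 replicate, against 1387, 1206 and 696 with limma on log2(FPKM + 0.5), + 1 and + 5, 1360 with a mean FPKM of at least 5 and 269 with the length correction. At least 2-fold lower were 1630 to 1837 without 1 replicate, against 418 with limma on log2(FPKM + 5) and 1070 with the length correction. Without the replicate block 6666 genes were higher and 6243 lower, 12907 of them called with the same sign in both fits. The pairing mattered most for the difference between genotypes: 335 genes were higher and 444 lower in the mutant without the block, against 2090 and 2329. Leaving out 1 replicate gave 709 to 2515 and 1064 to 2526, lowest without replicate 1. The causes were not tested. Scaling by library size alone moved the median of all genes from 0.02 to -0.12, and the share of called genes that were higher from 51.6% to 42.4%.

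The length correction reversed LHY (0.67), AXR3 (-0.34), CAB2 (-0.33), JAZ8 (-0.36), EPF2 (-1.06), PHO1 (0.46), ADR1-L1 (0.36) and KAT1 (0.28), all passing in that fit. LHY, CAB2, EPF2 and KAT1 had not passed in the main fit. HON5 (0.046), TAS1C (-0.13) and FCA (0.045) changed sign but no longer passed (adjusted p = 0.45, 0.25 and 0.59). The correction also changed the sign of the median in 17 of 54 lists, and other settings did so in 10 lists with medians near 0. Genes below a mean of 1 FPKM were not tested.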
